A study of Mus musculus with 4 samples.

Results

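The SET1 and MLL complexes are the main writers of methyl groups on lysine 4 of histone H3 (H3K4). The set described here holds 10 genes of the 19938 that a probe set with a single gene symbol represented on these arrays: the 6 catalytic subunits Setd1a, Setd1b, Kmt2a, Kmt2b, Kmt2c and Kmt2d, and the 4 core subunits Ash2l, Wdr5, Rbbp5 and Dpy30. They were taken by symbol, and 12 probe sets named 1 of them and no other gene. For a gene with several probe sets, the one with the highest mean over the 4 arrays stood for it, so probe sets were chosen by their mean signal and genes by their symbol. That choice was narrow for Kmt2d, whose probe sets had means of 6.42 and 6.37, and wider for Setd1b, at 6.05 and 5.70. The set was proposed with results of these data in view, Setd1b among them, so every value below is a description and the p-values lend the set no support.

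In each complex a SET domain protein carries the catalytic activity, and WDR5, RBBP5, ASH2L and DPY30 form a module that all of these enzymes need for full activity. The SETD1A and SETD1B complexes, which also hold CXXC1 and WDR82, supply much of the trimethylation at active promoters. KMT2A and KMT2B work with menin at developmental genes and CpG-rich promoters, and KMT2C and KMT2D, with the demethylase KDM6A, monomethylate H3K4 at enhancers. In mouse embryonic stem cells, WDR5, DPY30 and SETD1A have been tied to self-renewal or to lineage potential. H3K4 methylation and histone acetylation tend to mark the same active promoters and enhancers.

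Total RNA was measured on 4 Affymetrix arrays of mouse E14 embryonic stem cells, an established line, grown with serum and leukemia inhibitory factor on primary embryonic fibroblasts that mitomycin C had stopped from dividing. The control group was untreated E14 cells (2 arrays), and the treated group was E14 cells given 0.5 mM valproic acid (VPA), an inhibitor of histone deacetylases, for 4 h (2 arrays). The labels give 4 h for the control arrays as well. Feeders and medium were common to both groups, and the labels call the arrays replicates without saying that they came from separate cultures, so p-values reflect how far these arrays scattered and may capture technical variation alone. The deposited values were log2 signals, so a difference of 1 is a doubling, and a negative difference means lower signal with VPA. The number of arrays limits the precision, and an exact permutation test of 2 against 2 cannot give a p below 0.33.

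All stem cell markers were well measured: 12 of 12 lay above the median of all represented genes, and the brightest were Dppa5a, Tdgf1 and Pou5f1 (12.58, 11.87 and 10.80). Fibroblast markers were also measured, 11 of 18 above that median, at levels down to 2.28. Vim, Fn1 and Sparc were the brightest (10.23, 9.98 and 9.01). Pearson's r between arrays, over probe sets, which are not independent, lay between 0.988 and 0.993. Untreated replicate 2 stood apart: untreated replicate 1 was nearer to both VPA arrays (SD of the difference 0.297 and 0.301) than to its own replicate (0.311). Over all 35556 probe sets, limma with Benjamini-Hochberg adjustment called 0, or 0% (smallest adjusted p 0.462). At an unadjusted p under 0.05, 1220 (3.43%) were lower and 2049 (5.76%) higher with VPA. No member of the set, and none of the other genes named below, passed the adjusted test.

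The SETD1 enzymes had the lowest VPA signals of the catalytic group relative to untreated cells, while the core module differed little. Setd1b was 1.84-fold lower and Setd1a 1.46-fold lower in VPA cells, and Kmt2b was 1.26-fold lower with nearly touching groups. Kmt2a and Kmt2c had almost equal group means, and so did Ash2l. The median log2 difference was −0.28 over the 6 catalytic members and −0.044 over the 4 core members, beside 0.015 over all represented genes. A lower mean with VPA was found for 4 of 6 catalytic and 3 of 4 core members, where 46.3% of all genes were lower. The catalytic median depended on untreated replicate 2: without it the median was −0.085, and without untreated replicate 1 it was −0.49. It also moved with the choice of probe set, to −0.22 when the mean of all probe sets per gene was used.

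**Figure D1:**
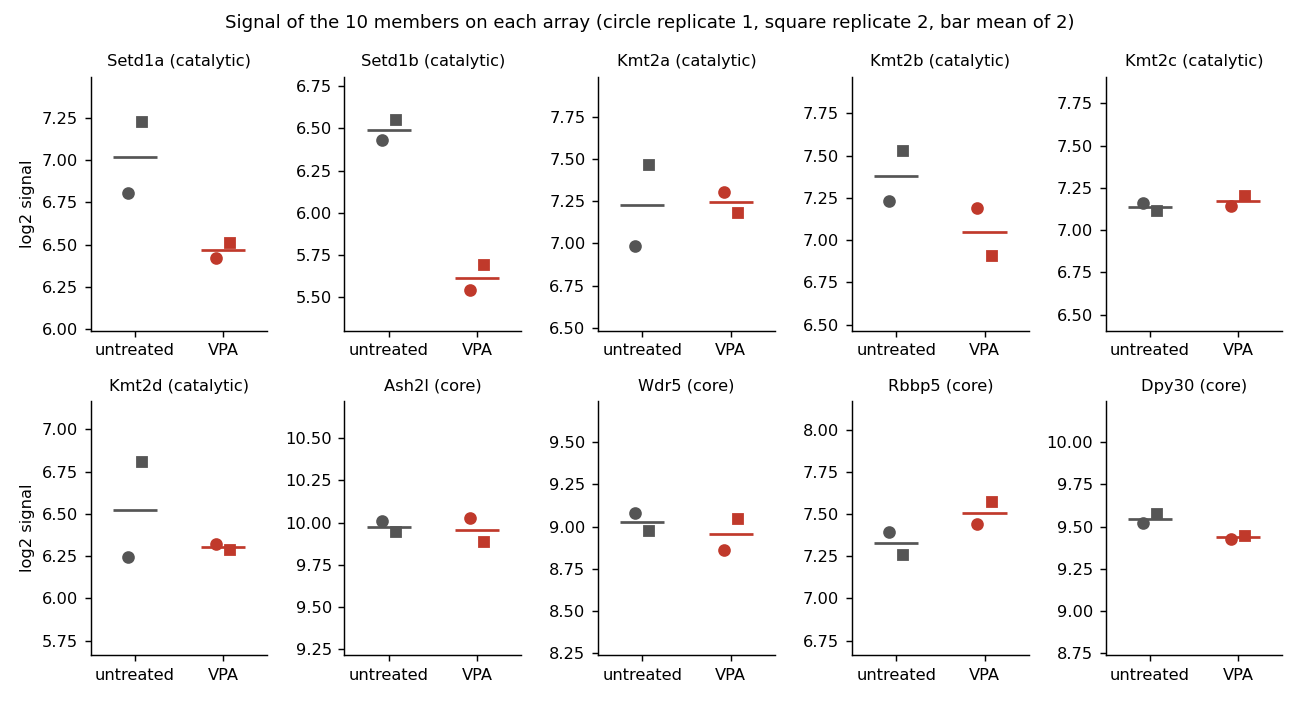
Log2 signal of the 10 members on each of the 4 arrays, with replicate 1 as circles, replicate 2 as squares and bars at the mean of 2; every panel spans the same log2 range around the gene's own mean. The untreated and VPA arrays are well apart for Setd1b and apart for Setd1a, untreated replicate 2 is the high array for Kmt2a and Kmt2d, and the core panels are nearly level.

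Setd1b encodes the catalytic subunit of a SET1 complex. Its signal (probe set 10525495) was 6.43 and 6.55 on the untreated arrays and 5.54 and 5.69 on the VPA arrays. Both VPA arrays lay below both untreated arrays, with a gap of 0.74 between the nearest arrays, while replicates differed by 0.12 and 0.15. The means were 6.49 ± 0.087 and 5.62 ± 0.10 (SD, n = 2), a difference of −0.88 ± 0.12 (SE, limma, unadjusted p = 0.000797 and adjusted p = 0.462). A second probe set of the gene (10525489) read 5.87 and 6.50 in untreated and 5.30 and 5.12 in VPA cells. It was also lower without overlap, by −0.97 ± 0.23 (SE), with untreated arrays 0.63 apart. Among the represented genes 4 had a lower difference than Setd1b. Of all genes 0.266% were at least 1.5-fold lower and 0.983% at least 1.5-fold higher, and of the 10 members Setd1b alone reached either. With any 1 array left out its difference stayed between −0.80 and −0.95.

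Setd1a, the paralogue of Setd1b, encodes the enzyme of the other SET1 complex. Its signal (10557758) was 6.81 and 7.22 in untreated and 6.42 and 6.51 in VPA cells. The groups did not overlap, and the gap between the nearest arrays (0.30) was smaller than the distance between the untreated arrays (0.42). The difference was −0.55 ± 0.17 (SE, limma, unadjusted p = 0.0236, adjusted p = 0.504). Leaving out untreated replicate 2 gave −0.34, and leaving out untreated replicate 1 gave −0.76. Among all genes 70 had a lower difference.

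Setd1a and Setd1b were the 2 catalytic members with an unadjusted p under 0.05, a level that 2.71% of represented genes reached in the lower and 5.9% in the higher direction. Without untreated replicate 2, VPA replicate 1 or VPA replicate 2 the count was 1 of 6, and without untreated replicate 1 it was 3. Together with Kmt2b, 3 of the 6 catalytic members were lower without overlap between the groups, as were 18.1% of all genes.

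Kmt2a and Kmt2b encode the enzymes of the complexes that hold menin, and both belong to the trithorax family that maintains expression of developmental genes. Kmt2b (10562005) read 7.23 and 7.53 in untreated and 7.19 and 6.91 in VPA cells. The groups were separate by only 0.041, less than the distance between the arrays of either group. The difference was −0.33 ± 0.17 (SE, limma, unadjusted p = 0.104, adjusted p = 0.606), and −0.18 without untreated replicate 2. Kmt2a (10592942) read 6.99 and 7.47 in untreated and 7.30 and 7.18 in VPA cells. Both VPA values lay between the untreated ones, and the difference of 0.015 ± 0.19 (SE) turned to −0.22 without untreated replicate 1, to −0.063 after a second quantile normalization and to −0.045 without VPA replicate 1.

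Kmt2c and Kmt2d encode the large enhancer-associated enzymes. Kmt2c (10528723) was the steadiest catalytic member, at 7.16 and 7.11 in untreated and 7.14 and 7.20 in VPA cells. Its groups overlapped and its difference was 0.035 ± 0.11 (SE), which became −0.049 after a second quantile normalization. Kmt2d (10432298) read 6.25 and 6.80 in untreated and 6.32 and 6.28 in VPA cells. Here untreated replicate 2 alone was high, and the difference of −0.22 ± 0.21 (SE) was 0.057 without that array. The other Kmt2d probe set (10432294), of almost the same mean, gave −0.0084 ± 0.13 (SE) from 6.26 and 6.49 in untreated and 6.33 and 6.40 in VPA cells.

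The core subunits differed by between −0.11 and 0.18. Ash2l (10577866) encodes the subunit that joins DPY30 and RBBP5 to the enzyme. It read 10.01 and 9.94 in untreated and 10.03 and 9.89 in VPA cells, with overlapping groups and a difference of −0.017 ± 0.11 (SE). Wdr5 (10470427), whose product is a propeller-shaped scaffold for the enzyme, read 9.08 and 8.97 in untreated and 8.86 and 9.05 in VPA cells. Its groups overlapped too, and the difference was −0.072 ± 0.12 (SE). Both signs depended on single arrays: Ash2l was 0.015 without untreated replicate 1 and 0.054 without VPA replicate 2, and Wdr5 was 0.022 without VPA replicate 1.

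Dpy30 (10452867), which binds ASH2L and stimulates methylation, read 9.52 and 9.57 in untreated and 9.43 and 9.45 in VPA cells. The groups did not overlap, and the difference was −0.11 ± 0.10 (SE, limma, unadjusted p = 0.342, adjusted p = 0.789). Rbbp5 (10349809), another scaffold subunit, was the core member with a higher mean in VPA cells. It read 7.39 and 7.26 in untreated and 7.44 and 7.57 in VPA cells, with a gap of 0.044 between the groups. Its difference was 0.18 ± 0.12 (SE, limma, unadjusted p = 0.194, adjusted p = 0.697). Lower without overlap was thus 1 of 4 core members, and higher without overlap 1 of 4, where 18.1% and 24.1% of all genes were so.

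**Figure D2:**
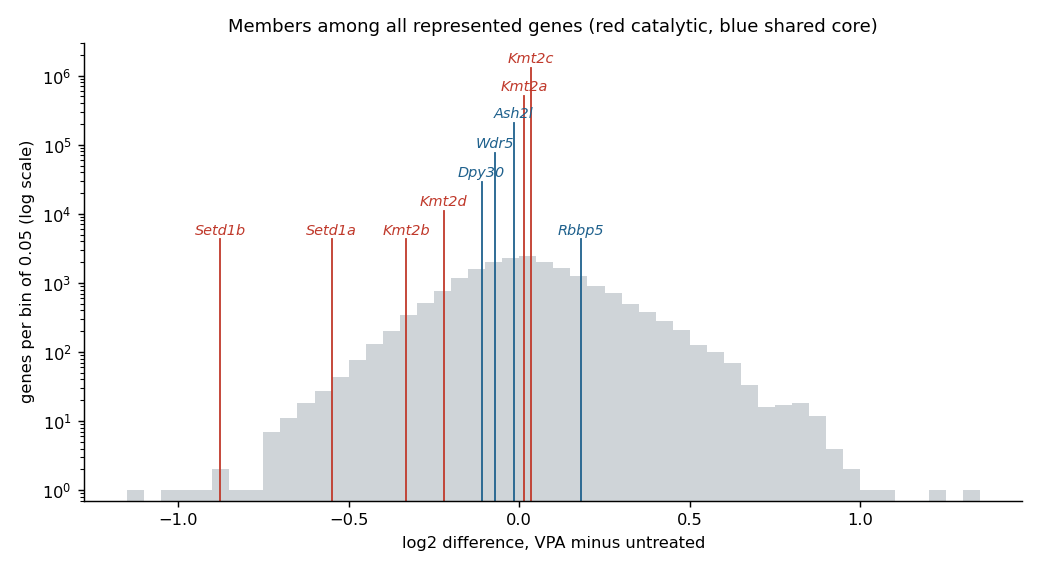
Histogram of the log2 difference, VPA minus untreated, of 19938 represented genes (grey, genes per bin, log scale), with catalytic members as red and core members as blue lines whose heights only carry the names. Setd1b at −0.88 and Setd1a at −0.55 lie in the lower tail, and the core members lie between −0.11 and 0.18.

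The comparison of catalytic with core subunits was made on each array. The median log2 signal of the catalytic members minus that of the core members differed by −0.20 between VPA and untreated cells. With each gene first centred on its own mean, a choice made after seeing the data, it was −0.29. The centred values per array were −0.023 and 0.37 in untreated and −0.036 and −0.19 in VPA cells. Untreated replicate 1 and VPA replicate 1 were thus nearly equal, and untreated replicate 2 was the array that stood apart. Without it the uncentred value was −0.047, without untreated replicate 1 it was −0.35, and without VPA replicate 2 it was −0.11. Setd1b barely enters the uncentred median, because its probe set lies below the middle of the 6 signals on every array.

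Among the catalytic members, 5 of 6 read higher on untreated replicate 2 than on untreated replicate 1, with a median distance of 0.36, while 50.6% of all genes were higher there. Of the core members 1 of 4 did so, with a median of −0.086. That distance was 0.42 for Setd1a, 0.30 for Kmt2b, 0.48 for Kmt2a and 0.56 for Kmt2d, and 0.12 for Setd1b. The part of untreated replicate 2 in the catalytic median was measured only by leaving it out.

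**Figure D3:**
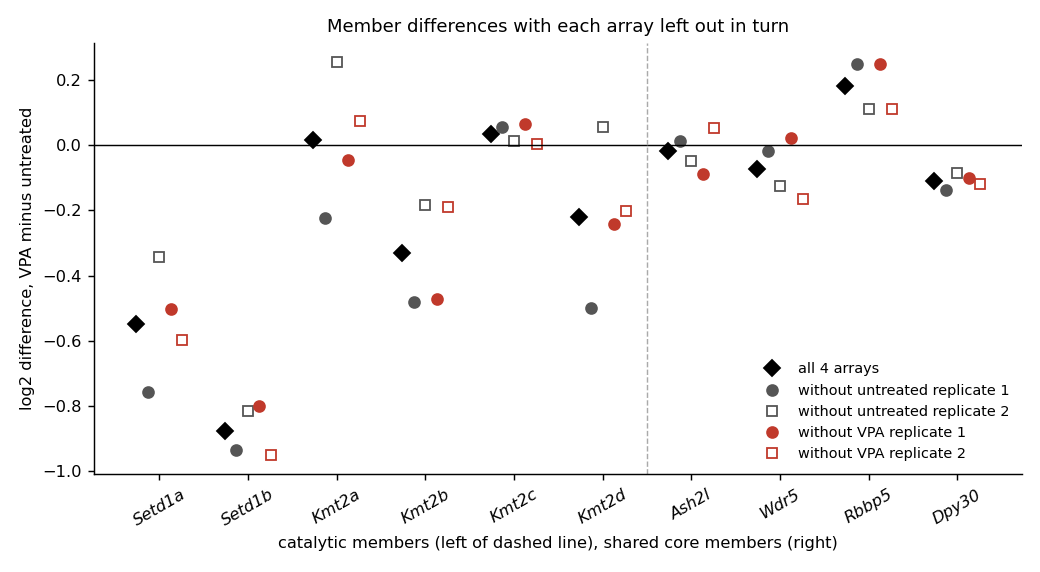
Log2 difference, VPA minus untreated, of each member with all 4 arrays (black diamonds) and with each array left out in turn (circles and squares; catalytic members left of the dashed line). Setd1b stays between −0.80 and −0.95, Setd1a ranges from −0.34 to −0.76, and Kmt2a and Kmt2d take either sign.

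Promoter sequences from RefSeq (GRCm38.p6) were matched by gene identifier for 7 of the 10 members; Setd1b, Kmt2b and Ash2l were not among them. They were read for CpG dinucleotides, the letters CG, which are the same on both strands and which CXXC1, KMT2A and KMT2B are known to bind when unmethylated. The sequences are the 250 bases before the start, 5′ to 3′ on the gene's strand, with each CG in capitals. Shown are Setd1a, the catalytic member with the lowest difference among those with an entry (chr7:127777139-127777388, plus strand), Kmt2a, a catalytic member with nearly equal group means (chr9:44881290-44881539, minus strand), Rbbp5, a core member with a higher mean (chr1:132477117-132477366, plus strand), and Hcfc1, a partner with lower signal described below (chrX:73966358-73966607, minus strand).
Setd1a: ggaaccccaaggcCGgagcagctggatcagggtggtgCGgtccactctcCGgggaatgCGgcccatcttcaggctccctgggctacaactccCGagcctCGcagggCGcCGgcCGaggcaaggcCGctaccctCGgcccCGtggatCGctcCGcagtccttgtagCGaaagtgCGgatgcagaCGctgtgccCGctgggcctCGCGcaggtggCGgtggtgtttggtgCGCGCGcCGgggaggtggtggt
Kmt2a: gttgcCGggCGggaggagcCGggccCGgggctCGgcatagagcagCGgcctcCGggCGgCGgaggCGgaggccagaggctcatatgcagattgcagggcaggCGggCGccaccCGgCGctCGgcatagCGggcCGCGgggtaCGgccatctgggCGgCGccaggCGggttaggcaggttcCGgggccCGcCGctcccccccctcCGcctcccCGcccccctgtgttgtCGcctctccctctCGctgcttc
Rbbp5: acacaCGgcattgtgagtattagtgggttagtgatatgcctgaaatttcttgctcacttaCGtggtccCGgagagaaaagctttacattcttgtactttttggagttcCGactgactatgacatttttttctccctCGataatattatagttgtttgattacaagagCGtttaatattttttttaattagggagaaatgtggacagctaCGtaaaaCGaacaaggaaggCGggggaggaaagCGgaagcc
Hcfc1: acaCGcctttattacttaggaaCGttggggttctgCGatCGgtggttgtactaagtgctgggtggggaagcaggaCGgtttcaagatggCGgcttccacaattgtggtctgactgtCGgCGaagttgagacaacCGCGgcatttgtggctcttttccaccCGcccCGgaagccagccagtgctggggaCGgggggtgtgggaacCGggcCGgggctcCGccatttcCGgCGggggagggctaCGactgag

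At least 1 CG was present in 92.1% of the 32851 promoters of the table, with a median of 6. Setd1a held 25, Kmt2a 29, Kmt2d 26 and Kmt2c 48, counts reached by 10.7%, 6.78%, 9.59% and 0.186% of all promoters. Among core members Wdr5 held 12 (reached by 33.5%) and Rbbp5 10 (37.8%). Dpy30 has 4 annotated starts, whose windows held 1, 21, 28 and 34. Hcfc1 held 19 (19.7%). The catalytic genes with an entry (Setd1a, Kmt2a, Kmt2c and Kmt2d) all held more CG than the median promoter. So did Wdr5, Rbbp5, Hcfc1 and every Dpy30 window except the one that held 1. Setd1b and Kmt2b had no entry, and a link between CG count and VPA difference was not tested. The counts describe the letters in these windows, and no binding or methylation was measured.

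Subunits that distinguish the complexes were read as a list of 12 genes, all measured. Of them 5 had a lower and 7 a higher mean, where 46.3% of all genes were lower. The median difference of 0.012 was −0.037 after a second quantile normalization and −0.041 without untreated replicate 2. At an unadjusted p under 0.05, 1 of 12 was lower and 1 higher, where 2.71% and 5.9% of all genes were, and 0 passed the adjusted test in limma. These genes were Hcfc1 and Hcfc2. Hcfc1 encodes host cell factor, a large adaptor found in SET1 and menin-containing complexes and in deacetylase and transferase assemblies, and Hcfc2 its smaller relative. Hcfc1 (10605195) read 9.20 and 9.34 in untreated and 8.79 and 8.65 in VPA cells. The groups were 0.42 apart at the nearest arrays, and the difference was −0.55 ± 0.12 (SE, limma, unadjusted p = 0.00593, adjusted p = 0.472). It stayed between −0.48 and −0.62 with any 1 array left out. Hcfc2 (10365242) lay in the opposite direction, at 5.46 and 5.03 in untreated and 5.67 and 5.79 in VPA cells. Its groups did not overlap, and its difference of 0.49 ± 0.17 (SE, limma, unadjusted p = 0.0379, adjusted p = 0.526) was 0.28 without untreated replicate 2. The unadjusted p of Hcfc2 was 0.058 after a second quantile normalization, 0.0556 with the replicate number as a block, and 0.118, 0.0935 and 0.156 without untreated replicate 2, VPA replicate 1 and VPA replicate 2.

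Among partners of the SETD1 enzymes, Cxxc1, Wdr82, Bod1 and Bod1l did not share the lower signal of Setd1a and Setd1b. Of the host cell factors described above, Hcfc1 was lower too (−0.55) and Hcfc2 was higher (0.49). Cxxc1, the CpG-binding subunit, differed by 0.13 ± 0.12 (SE), and Wdr82, which links the complex to RNA polymerase II, by 0.017 ± 0.14. Bod1 and Bod1l, related proteins found with SET1 enzymes, differed by 0.0059 ± 0.11 and 0.096 ± 0.11. Whether the enzymes differed from these partners was not tested.

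Among partners of KMT2A and KMT2B, Men1, which encodes menin, differed by 0.089 ± 0.11 (SE), and Psip1, a chromatin reader bound through menin, by −0.17 ± 0.11. Among partners of KMT2C and KMT2D, Ncoa6 differed by −0.15 ± 0.11, Paxip1 by −0.18 ± 0.15 and Pagr1a by −0.11 ± 0.11. Kdm6a, a demethylase of H3 lysine 27, differed by 0.076 ± 0.24, and its untreated arrays lay far apart, at 7.61 and 6.95. All of these differences were within 2 SE of 0.

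**Figure D4:**
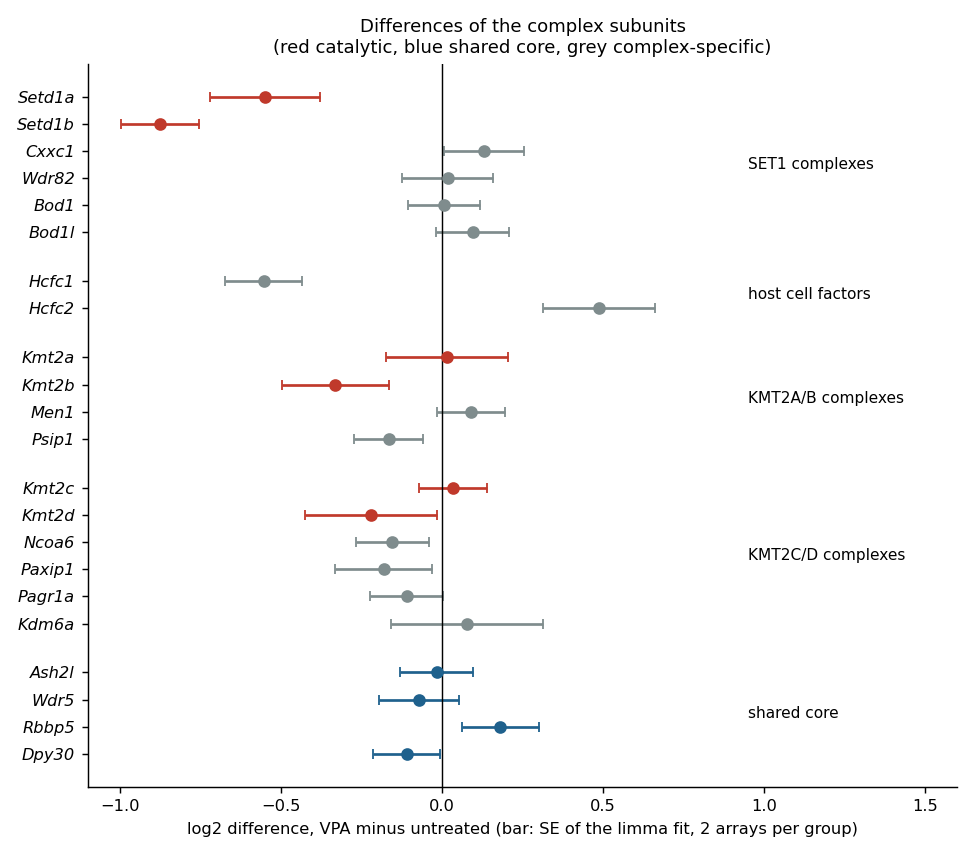
Log2 difference, VPA minus untreated, with its SE from the limma fit (2 arrays per group) for catalytic subunits (red), shared core subunits (blue) and complex-specific subunits (grey), ordered by complex. Setd1a, Setd1b and Hcfc1 lie between −0.55 and −0.88, Hcfc2 at 0.49, and the core subunits between −0.11 and 0.18.

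Enzymes that remove the mark included 1 gene with a large difference. Kdm1b encodes a flavin-dependent H3K4 demethylase known for its role in maternal imprinting in mouse oocytes. It read 5.02 and 5.02 in untreated and 5.83 and 5.73 in VPA cells. Both VPA arrays lay above both untreated arrays, 0.71 apart at the nearest, and the difference was 0.76 ± 0.11 (SE, limma, unadjusted p = 0.000948, adjusted p = 0.462). With any 1 array left out it stayed between 0.71 and 0.81. Of the 6 demethylases 4 were higher and 2 lower, where 46.3% of all genes were lower. Their median difference was 0.076 (0.17 without untreated replicate 1, but 0.020 when untreated replicate 2 was left out). Kdm1b was the only one with an unadjusted p under 0.05 in limma, which 5.9% of all genes reached in the higher direction. Kdm1a, the paralogue found in corepressor complexes, differed by 0.069 ± 0.14, and the Kdm5 genes by 0.31 ± 0.13 (Kdm5a), −0.023 ± 0.11 (Kdm5b), −0.15 ± 0.15 (Kdm5c) and 0.082 ± 0.14 (Kdm5d). Kdm5d, counted among the 4 higher, lay below the median signal of all genes (mean 2.72).

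The factors that ubiquitinate histone H2B, and the PAF complex that recruits them, act upstream of H3K4 methylation by these complexes. Of 10 such genes 9 had a higher mean in VPA cells and 1 a lower one, where 46.3% of all genes were lower. The median was 0.19. Leaving out untreated replicate 1 gave 0.28 and leaving out untreated replicate 2 gave 0.13. Of them 6 were higher without overlap, where 24.1% of all genes were. Ube2b, a ubiquitin-conjugating enzyme, had an unadjusted p under 0.05, at 0.40 ± 0.11 (SE, limma, unadjusted p = 0.0172, adjusted p = 0.494). It read 6.59 and 6.59 in untreated and 6.92 and 7.06 in VPA cells. It was the only 1 of the 10 at that level, which 5.9% of all genes reached in the higher direction.

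Readers of trimethylated H3K4 had a median of −0.061 over 8 genes, which was 0.019 without untreated replicate 1. Of them 6 were lower and 2 higher, where 46.3% of all genes were lower. Phf13, a PHD finger protein, was the 1 of 8 with an unadjusted p under 0.05, at 0.40 ± 0.12 (SE, limma, unadjusted p = 0.0208, adjusted p = 0.503). That level was reached by 5.9% of all genes in the higher direction. Other SET domain genes, most of them methyltransferases for other sites, had a median of 0.085 over 20 measured of 22 listed, and 0.020 after a second quantile normalization. There 15 were higher and 5 lower, where 46.3% of all genes were lower. Setd2, whose product trimethylates H3K36, was higher by 0.38 ± 0.11 (SE, limma, unadjusted p = 0.0212, adjusted p = 0.503), and its other probe set also gave 0.38. Nsd3, which encodes an enzyme that dimethylates H3K36, differed by 0.38 ± 0.12. An unadjusted p under 0.05 in limma was reached by 0 of these 20 genes in the lower and 2 in the higher direction, where 2.71% and 5.9% of all genes were, and 0 passed the adjusted test.

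The profile of Setd1b over the 4 arrays was compared with 9968 genes above the median signal, by the Euclidean distance of log2 values centred on each gene's mean. The nearest named genes were Zfp710 (distance 0.172), Asxl1 (0.192), Foxd3 (0.199), Zfp428 (0.204) and Brpf3 (0.214), with log2 differences between −0.69 and −0.80. Hcfc1 followed at 0.377, with 40 genes nearer, and Setd1a at 0.388, with 46 nearer. Kmt2b had 552 genes nearer and Kmt2a 4441. A small distance requires a VPA difference close to that of Setd1b, so these differences follow from how the genes were picked. The comparison rests on 4 arrays and is a description.

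Markers of other cell types were read beside these results. The summed linear signal of 18 fibroblast markers was 3304 and 3418 on the untreated arrays and 3193 and 3213 on the VPA arrays. Most of it came from Vim, Fn1 and Sparc, so the sum says little about the other markers. Means were lower for 14 and higher for 4, with a median of −0.094, where 46.3% of all genes were lower. An unadjusted p under 0.05 in limma was reached by 1 of 18 in the lower direction, Ccdc80 at −0.31 ± 0.11 (SE). In the higher direction 1 of 18 reached it, Thy1 at 0.31 ± 0.12. The sum over 8 endoderm markers, 3 of them above the median signal of all genes, was 275 and 277 in untreated and 238 and 237 in VPA cells. Most of each sum came from Lama1 (mean log2 signal 7.30, the next brightest being Sox7 at 4.48), which differed by −0.25 ± 0.11 (SE). The sum thus mainly follows that gene. Endoderm marker means were lower for 6 and higher for 2, with a median of −0.20 (−0.052 with dimmer probe sets left out). At an unadjusted p under 0.05 in limma, 2 of 8 were lower, Gata6 at −0.42 ± 0.11 and Sox7 at −0.59 ± 0.17. In the higher direction 1 of 8 reached that level, Dab2 at 0.36 ± 0.14. The shares of all genes were 2.71% lower and 5.9% higher. Gata6 and Dab2 lay below the median signal of all genes (means 3.49 and 3.88), and a second Dab2 probe set gave −0.013 ± 0.12 (SE). The sum over 8 trophoblast markers overlapped between groups, at 233 and 242 in untreated and 214 and 271 in VPA cells. Stem cell markers overlapped as a sum too (19890 and 18070, then 18440 and 18870), with 8 lower and 4 higher means and a median of −0.15. Gene by gene, 7 of 12 were lower and 1 higher without overlap, where 18.1% and 24.1% of all genes were. At an unadjusted p under 0.05 in limma, 3 were lower and 0 higher, where 2.71% and 5.9% of all genes were. These were Nanog at −0.48 ± 0.14, Utf1 at −0.33 ± 0.12 and Lin28a at −0.34 ± 0.12. The part of these cell types in the lower Setd1a, Setd1b and Hcfc1 signals was not tested. In such bulk RNA, fewer cells of a type and less RNA per cell cannot be told apart.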

How the data were processed

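The authors deposited log2 signals for each probe set on each array. Per the submitters' processing notes, these came from RMA, run in Affymetrix Expression Console 1.1, a method that corrects background, quantile-normalizes and summarises probes. The sources used here do not give which arrays were normalized jointly. Array medians lay between 3.80 and 3.82.

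Names came from the platform annotation: of 35556 probe sets 21789 had 1 gene symbol, 1621 several and 12146 none here, and no probe set with several symbols named a member. Groups followed the treatment in the labels. The deposited values were fitted over all probe sets with limma 3.58.1 (lmFit, then eBayes; R 4.3.3), with treatment as the only term (2 residual and 2.93 prior degrees of freedom), two-sided, with Benjamini-Hochberg adjustment over all probe sets and a threshold of 0.05. The fit was tested on simulated data. Lists are described by counts and medians without a test. Genes named are the members, all 12 complex-specific subunits, up to 4 genes per other list with an unadjusted p under 0.05 (all 6 demethylases are given, a choice made after their values were seen), the brightest 3 stem cell and fibroblast markers and the 5 nearest to Setd1b. Lama1 is also named, a choice made after its values were seen. Members and lists were chosen with earlier results of these data known. Alternatives were another scaling, a filter on dim probe sets, other moderation, a replicate block, the mean over probe sets of a gene, and each array left out. Same-numbered arrays did not deviate together (r = −0.097 over probe sets), so numbers were not taken as pairs.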

Additional observations from a re-analysis of the deposited data

How the results depend on the processing

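No alternative gave a call at the adjusted threshold, and Setd1a, Setd1b, Kmt2b, Dpy30 and Rbbp5 kept their direction under all of them. With the replicate number as a block, the count of called probe sets was 0, and Setd1b differed by −0.88 (adjusted p = 0.677). Lower probe sets at an unadjusted p under 0.05 numbered 764 with dimmer probe sets left out and between 646 and 1718 with 1 array left out; higher ones ranged from 1181 to 2524. With 1 array left out, the lone sample of its group being assumed to vary like the other group, the catalytic median ran from −0.49 to −0.085, the core median from −0.066 to −0.0013, catalytic minus core from −0.35 to −0.047, and the count of lower catalytic members at an unadjusted p under 0.05 from 1 to 3. Signs turned with 1 array left out for Kmt2a (−0.22 without untreated replicate 1, −0.045 without VPA replicate 1, range −0.22 to 0.26), Kmt2d (0.057 without untreated replicate 2, range −0.50 to 0.057), Ash2l (0.015 without untreated replicate 1, range −0.088 to 0.054) and Wdr5 (0.022 without VPA replicate 1, range −0.17 to 0.022). The medians of complex-specific subunits (−0.041 without untreated replicate 2, range −0.041 to 0.036), H3K4 readers (0.019 without untreated replicate 1, range −0.13 to 0.019) and trophoblast markers (−0.019 without untreated replicate 1, range −0.019 to 0.11) did so too. After a second quantile normalization, signs turned for Kmt2a (−0.063), Kmt2c (−0.049) and the medians of all represented genes (−0.0042) and of complex-specific subunits (−0.037). The cause was not tested. Signal over background could not be judged, because no detection calls were used here.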
